A study of Saccharomyces cerevisiae with 12 samples.

Results

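Rpl14, Rpl17, Rpl22 and Rpl35 are proteins of the large (60S) ribosomal subunit of budding yeast (Saccharomyces cerevisiae), and the genes of these 4 proteins are duplicated. Each is encoded by an A copy and a B copy, so there were 8 genes of the 6571 in the RNA-seq table: RPL14A (YKL006W), RPL14B (YHL001W), RPL17A (YKL180W), RPL17B (YJL177W), RPL22A (YLR061W), RPL22B (YFL034C-A), RPL35A (YDL191W) and RPL35B (YDL136W). They were chosen from these same libraries, because one copy of each pair rose or fell furthest among genes of 60S proteins. The differences between strains given for these 8 genes are therefore a description, with no test. Just outside the choice lay RPL15, whose copy ratio changed by -1.10 on the log2 scale against -1.11 for RPL14. Of the pairs of the small subunit, which the choice left aside, RPS28 changed by -1.32.

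RNA was sequenced from cells with wild-type SPT6 (WT) and from spt6-tSH2Δ cells (tSH2Δ), with 3 libraries per strain, and the labels give the strain S288C for both genotypes. Spt6 chaperones histones behind transcribing RNA polymerase II and is held to it through its tandem SH2 domain, which tSH2Δ lacks. Saturated cultures were diluted into YPD (rich medium with glucose) at an OD of 0.2 and grown for 4 h, and the study asked how Spt6 bears on mRNA stability. The labels do not say how many clones of the mutant were used or whether replicates were separate cultures, so the spread between libraries may be technical. The 6 libraries held 20483931 to 27069700 reads. SPT6 RNA, averaged over the whole annotated gene, stood at 180.1 ± 5.75 rescaled RPKM (SD, n = 3) in WT. In tSH2Δ it stood at 84.5 ± 0.814.

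Budding yeast keeps most of its ribosomal protein genes as pairs of copies that arose by a genome duplication, and the copies often differ in promoter strength and in their introns. Either copy can supply the same place in the ribosome. Rpl17 and Rpl35 line the end of the tunnel through which the new protein leaves the ribosome, and Rpl35 lies beside the place where targeting factors dock. Rpl14 and Rpl22 sit on the outer surface of the large subunit. Rpl22 protein also binds the RPL22B transcript and holds back its splicing, a known feedback in this yeast.

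Levels are in RPKM, read numbers divided by gene length and by library depth, which allows levels of different genes to be compared. RPKM were divided by a factor per library that puts the median gene at the same level in each (rescaled RPKM). Without that step the median gene stood 0.57 higher in tSH2Δ on the log2 scale, so changes are relative to the median gene. The share of a copy in its pair does not depend on this step.

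In WT the 4 pairs were unequal to very different degrees. RPL22A exceeded RPL22B 12.3-fold, with a log2 ratio of 3.62 ± 0.0515 (SD, n = 3). RPL35A exceeded RPL35B 4.40-fold, with a log2 ratio of 2.14 ± 0.0177. RPL17A exceeded RPL17B with a log2 ratio of 1.20 ± 0.0574. RPL14A and RPL14B were nearly equal, with a log2 ratio of 0.14 ± 0.0548. The A copy was higher in all 3 WT libraries in each pair. The WT values are part of the difference that chose the members, so these ratios carry no test. Unequal copies were common, since 25 of the other 29 pairs of the 60S subunit, and 87.7% of all 57 cytosolic ribosomal protein pairs, were called unequal in WT (limma, p-values adjusted over the 57 pairs).

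RPL17A (chromosome XI, 109269 to 110129, sacCer3) had the largest fall of all 81 genes of 60S proteins tested after scaling to the median gene. Its rescaled RPKM was 2594, 2716 and 2384 in WT and 503.1, 505.0 and 558.8 in tSH2Δ. The groups lay far apart, and the mutant level was 0.204 of WT. The log2 change was -2.29 (SE 0.0700), and -1.71 with RPKM as deposited. After quantile normalization it was -1.42, rank 3 from the lowest of the 81. With each library centred per chromosome, a setting added after seeing the data, it was -1.45, rank 4 from the lowest. RPL17B (chromosome X, 90786 to 91657) had 1140, 1132 and 1075 rescaled RPKM in WT and 543.2, 539.3 and 604.7 in tSH2Δ, a log2 change of -0.99 (SE 0.0587), which was -0.41 as deposited and -0.14 after quantile normalization. Both copies were thus lower in every mutant library, and the A copy by much more. The share of RPL17B in the pair was 30.5%, 29.4% and 31.1% in the WT libraries and 51.9%, 51.6% and 52.0% in the mutant libraries. RPL17A, the major copy in WT, was the slightly lower copy in each tSH2Δ library.

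RPL14A (chromosome XI, 431906 to 432720) had the next-largest fall among the 81 genes, and the largest, at -1.85, after quantile normalization. With each library centred per chromosome, RPL14A had a log2 change of -1.23 and rank 24 from the lowest of the 81. Its rescaled RPKM was 269.2, 260.3 and 235.8 in WT and 54.1, 59.7 and 66.1 in tSH2Δ, which is 0.235 of WT and a log2 change of -2.07 (SE 0.0769). RPL14B (chromosome VIII, 104277 to 105091) had 234.5, 235.5 and 221.7 in WT and 113.8, 114.2 and 125.5 in tSH2Δ, a log2 change of -0.96 (SE 0.0482). As for Rpl17, both copies were lower in all 3 mutant libraries, with no overlap between strains. The share of RPL14B was 46.6%, 47.5% and 48.5% in WT and 67.8%, 65.7% and 65.5% in tSH2Δ. A pair that was close to even in WT was therefore read mainly from the B copy in the mutant. As deposited, the log2 changes were -1.50 for RPL14A and -0.38 for RPL14B, and RPL14B stood at -0.56 after quantile normalization.

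In the Rpl22 pair the copies moved in opposite directions. RPL22A (chromosome XII, 263194 to 263948), the major copy, had 2502, 2488 and 2420 rescaled RPKM in WT and 1417, 1416 and 1593 in tSH2Δ, a log2 change of -0.74 (SE 0.0697). RPL22B (chromosome VI, 64243 to 64932) had 210.1, 195.1 and 192.8 in WT and 369.4, 366.6 and 447.2 in tSH2Δ, a log2 change of 0.98 (SE 0.0783). RPL22B stood highest of the 81 genes by its change, with every mutant library above every WT library. Its share rose from 7.75%, 7.27% and 7.38% in the WT libraries to 20.7%, 20.6% and 21.9% in the mutant ones, and RPL22A remained the major copy. The direction of RPL22A depended on the scaling, with a log2 change of -0.16 as deposited and 0.12 after quantile normalization. RPL22B was higher under all scalings tried, at 1.56 as deposited and 1.60 after quantile normalization.

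The RPL22A value has a further limit. YLR062C, an ID with no RefSeq match whose systematic name places it next to RPL22A on the opposite strand, held 15133 to 17545 reads in WT, against 15076 to 17501 for RPL22A. In tSH2Δ it held 15920 to 19008 reads, against 15884 to 18936. The libraries were made with a stranded kit, but no source used here gives the strand setting of the counting, so reads of the 2 IDs cannot be told apart. Whether reads of the opposite strand also entered the values of the other members was not tested. None of the 8 genes had an annotated span that overlapped another RefSeq gene in the table.

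The Rpl35 pair also moved in opposite directions, at a much lower level. RPL35A (chromosome IV, 117664 to 118517) had 99.2, 107.0 and 98.6 rescaled RPKM in WT and 66.6, 68.7 and 69.8 in tSH2Δ, a log2 change of -0.56 (SE 0.0425). RPL35B (chromosome IV, 217600 to 218367) had 21.9, 23.1 and 21.4 in WT and 40.7, 39.8 and 39.7 in tSH2Δ, a log2 change of 0.83 (SE 0.0438). The B copy was higher in all 3 mutant libraries and the A copy lower in all 3. RPL35A did not keep its direction as deposited, where its log2 change was 0.01, while that of RPL35B was 1.39 (0.56 after quantile normalization). The share of RPL35B was 18.1%, 17.8% and 17.8% in WT and 38.0%, 36.7% and 36.3% in tSH2Δ. RPL35B rested on 133 to 468 reads per library and RPL35A on 613 to 822, against 8570 to 27573 for RPL17A.

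For all 8 genes the values of the strains did not overlap, with 6 lower and 2 higher in tSH2Δ. Over all 6307 genes tested 42.2% were lower without overlap and 42.5% higher without overlap (84.7% in all), and 83.5% passed the test in either direction (limma adjusted p under 0.05). Since this difference chose the members, nothing is read from their count.

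**Figure D1:**
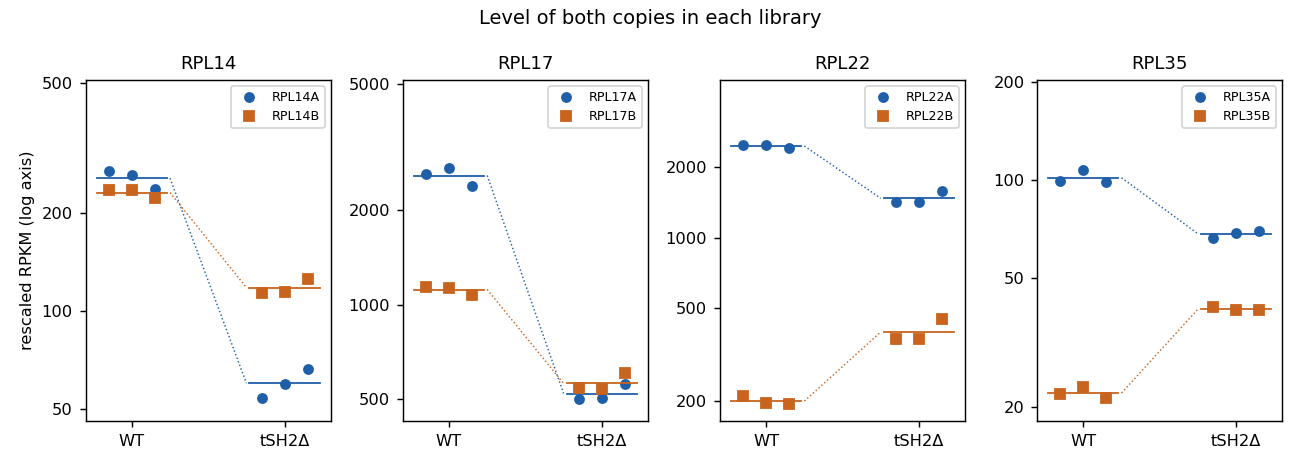
Rescaled RPKM of copy A (circles) and copy B (squares) in each library, on a log axis, with WT on the left and tSH2Δ on the right of each panel; points are libraries, solid lines are means of 3 libraries and dotted lines join the means of a copy. Both copies of RPL14 and RPL17 are lower in tSH2Δ and the A copy ends below the B copy, while RPL22B and RPL35B are higher in tSH2Δ and stay below their A copies.

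**Figure D2:**
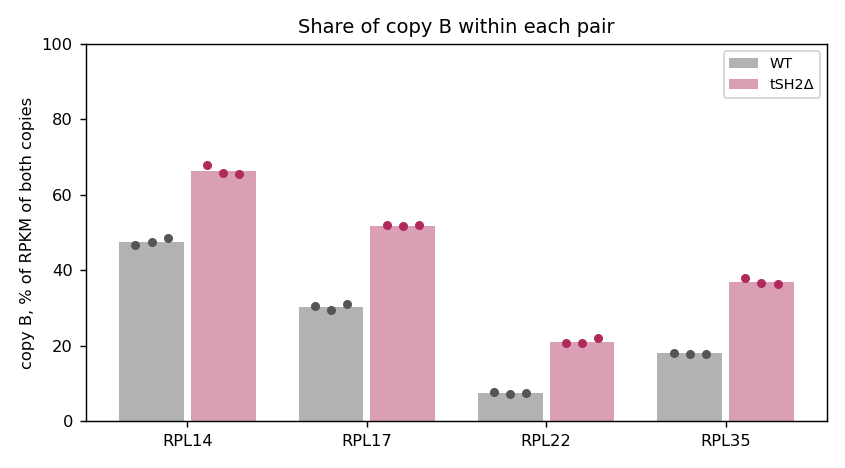
Share of copy B in the RPKM of both copies, in percent, for WT (grey) and tSH2Δ (pink); bars are means of 3 libraries and points are libraries. The B copy holds a larger share in tSH2Δ in all 4 pairs, and the libraries of a strain lie close together.

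The summed level of a pair, the rescaled RPKM of both copies added, set the Rpl14 and Rpl17 pairs apart from the Rpl22 and Rpl35 pairs. The pairs were chosen for a copy that fell or rose furthest, so the places of their sums partly restate the choice. The RPL17 sum went from 3680 ± 200 in WT to 1085 ± 68.3 in tSH2Δ (SD, n = 3), which is 0.295 of WT and the lowest ratio of the 33 pairs. The RPL14 sum went from 485.7 ± 24.7 to 177.8 ± 12.3, or 0.366 of WT, with 2 pairs lower. The other 29 pairs of the 60S subunit had a median of 0.479 of WT. The RPL22 sum went from 2669 ± 50.9 to 1870 ± 148, or 0.701 of WT, and 3 pairs had a higher ratio. The RPL35 sum went from 123.7 ± 5.59 to 108.4 ± 1.09, or 0.876 of WT, the highest of the 33. As deposited, the log2 changes of the sums were -1.18 for RPL17 and -0.87 for RPL14, but 0.07 for RPL22 and 0.39 for RPL35, so the fall of the last pair of sums depends on the scaling.

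The level of the RPL35 pair was the lowest of the 33 pairs in WT, by less than its spread below that of RPL1 (124.8), and the other 29 had a median sum of 2520 rescaled RPKM and a range of 124.8 to 5043. The RPL14 sum lay above those of 5 pairs. Both RPL35 genes encode the same protein, and no source used here says how reads that match both copies of a pair were counted. The part this plays in the levels and shares was not tested.

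**Figure D3:**
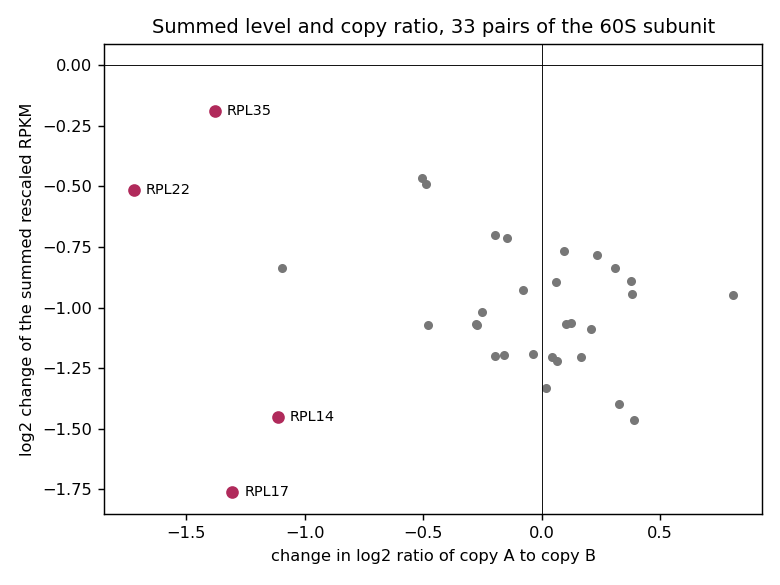
Log2 change of the summed rescaled RPKM of both copies (vertical) against the change in the log2 ratio of copy A to copy B (horizontal), tSH2Δ against WT, for the 33 pairs of the 60S subunit; the 4 chosen pairs are pink and named. RPL17 and RPL14 lie at the lower left, with sums at -1.76 and -1.45, and RPL35 and RPL22 at the upper left, with sums at -0.19 and -0.51.

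RPL17A and RPL14A both lie on the left arm of chromosome XI, and genes of that chromosome were lower as a whole. Its 342 tested genes had a median log2 change of -0.84, with 297 lower and 21 higher, against a median of 0.04 for the 5965 genes of the other chromosomes (-0.27 and 0.61 as deposited). Both arms of chromosome XI showed it, at -0.89 on the left and -0.79 on the right. RPL17A and RPL14A lay below most genes of their chromosome, where 9 and 15 of the 342 had a lower change. Nothing is read from these places, because both genes were chosen for their fall. Other genes of 60S proteins were also lower on the other chromosomes, with a median of -0.99. The neighbours of RPL17A were PRS1, a phosphoribosyl pyrophosphate synthetase gene, at -1.66 and COY1 at -0.90. Those of RPL14A were SFT1, a vesicle fusion (SNARE) gene, at -1.06 and BYE1 at -0.50.

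The copy ratios were also taken relative to the genes of each chromosome. With each library centred per chromosome, a setting added after seeing the data, the copy ratio change of RPL17 was -0.42 and that of RPL14 was -0.27, against -1.30 and -1.11 before. The changes of RPL22 and RPL35 stayed at -1.68 and -1.39, and none of their copies lies on chromosome XI. Why genes of chromosome XI were lower was not tested.

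The other ribosomal protein pairs with a copy on chromosome XI were RPL40, RPS21 and RPS27. In RPL40 the log2 changes were -1.67 for RPL40B, on chromosome XI, and -1.28 for RPL40A (limma adjusted p = 0.00016 for the ratio). In RPS21 the log2 changes were -1.39 for the copy on chromosome XI and -0.83 for its partner (limma adjusted p = 0.000516). In RPS27 they were -0.77 and -0.63, which did not pass the test (limma adjusted p = 0.0674). Centred per chromosome, the chromosome XI copy stood above its partner by 0.60 in RPL40, 0.32 in RPS21 and 0.70 in RPS27. RPL17A and RPL14A, which were chosen for their fall, stayed below theirs.

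**Figure D4:**
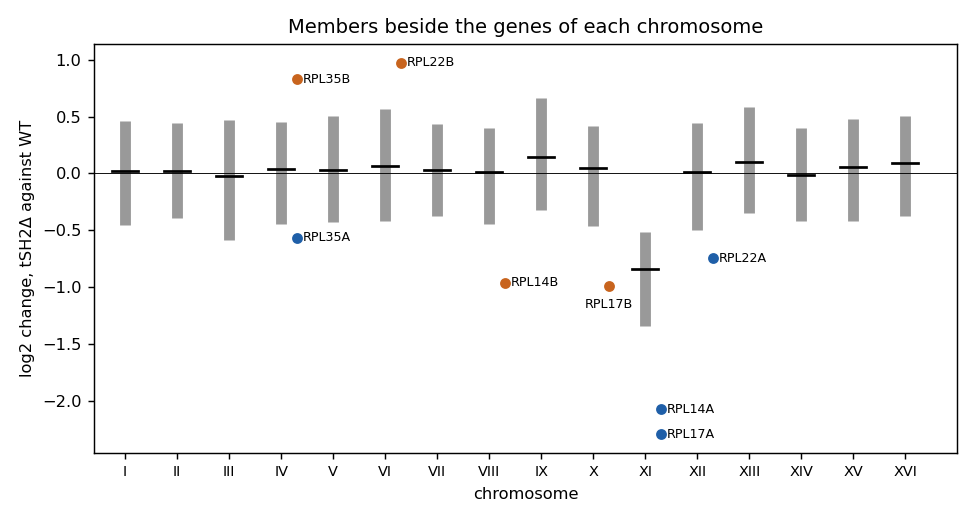
Log2 change, tSH2Δ against WT, of the genes tested on each chromosome (black line, median; grey bar, lower to upper quartile) and of the 8 members (blue, A copies; orange, B copies). The genes of chromosome XI have a median of -0.84 while the medians of the chromosomes that hold the other members lie between 0.01 and 0.06.

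Copies of other 60S pairs also diverged, by less than the 4 chosen pairs before centring per chromosome. With that centring the largest changes of other 60S pairs were RPL15 at -0.99, RPL36 at 0.79 and RPL40 at -0.60. These exceeded RPL17 at -0.42 in size, as did RPL41 at -0.50, RPL42 at -0.48, RPL34 at 0.45 and RPL7 at -0.43. RPL14 at -0.27 was also exceeded by RPL27 at 0.42, RPL19 at 0.38, RPL6 at -0.36, RPL8 at 0.33 and RPL11 at -0.32. The values that follow are without centring. Over all 57 ribosomal protein pairs 66.7% were called changed in copy ratio (limma adjusted p under 0.05). Of the 29 other 60S pairs 19 were called, 9 toward the A copy and 10 toward the B copy, with a median size of change of 0.21 on the log2 scale. The largest were RPL15 at -1.10 (limma adjusted p = 3.23e-06), RPL36 at 0.81 (limma adjusted p = 1.95e-05) and RPL41 at -0.50 (limma adjusted p = 0.0114). The smallest were RPL12 at 0.02, RPL2 at -0.04 and RPL1 at 0.05, which did not pass the test (limma adjusted p = 0.774, 0.613 and 0.515). Without tSH2Δ replicate 1, 12 of the 29 pairs were called.

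RPL15 was, like RPL22, a pair with a very small B copy. RPL15B, a copy that held 2.69% of its pair in WT, held 5.64% in tSH2Δ, and its own log2 change was 0.23 while that of RPL15A was -0.88. In RPL36 it was the A copy, at 17.8% of the pair in WT, that held more, 27.5%, in tSH2Δ. A minor copy under 20% of its pair in WT was found in 9 ribosomal protein pairs, a limit set after seeing the data, and 2 of them are RPL22 and RPL35. Of the other 7, the minor copy gained share in 4 (RPS28B, RPL15B, RPS22B and RPL36A) and lost it in RPL41A and RPS9A, each with a called ratio change. RPL4B, at 17.0% in WT and 16.3% in tSH2Δ, did not pass the test (limma adjusted p = 0.319).

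**Figure D5:**
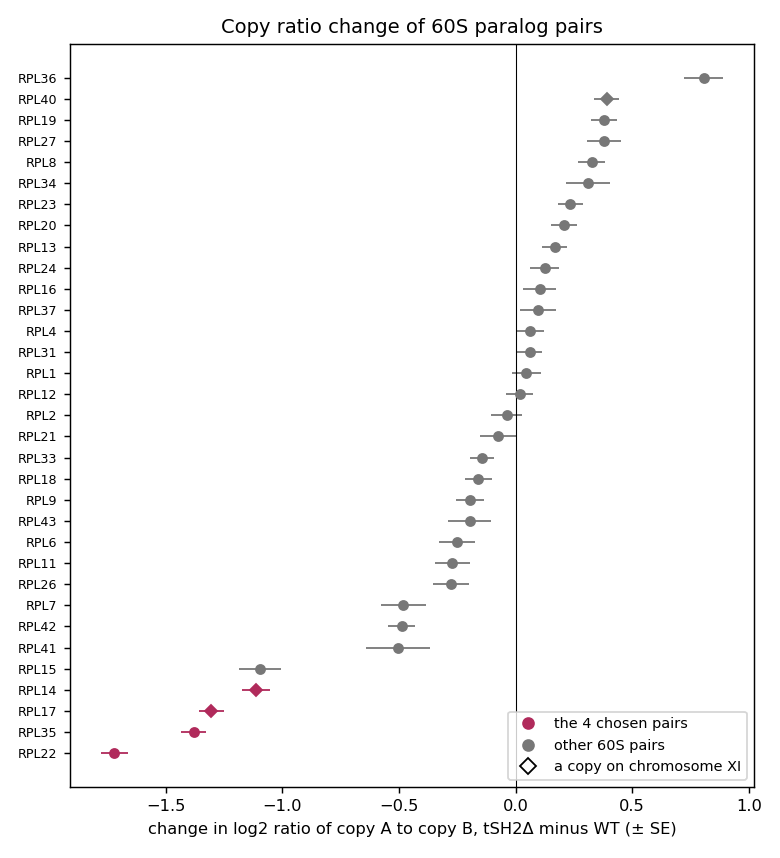
Change in the log2 ratio of copy A to copy B, tSH2Δ minus WT, for the 33 pairs of the 60S subunit (points, ± SE from limma; pink, the 4 chosen pairs; diamonds, pairs with a copy on chromosome XI). The 4 chosen pairs lie between -1.72 and -1.11, RPL15 stands next to them at -1.10, and most other pairs lie within 0.5 of 0.

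The other 73 genes of 60S proteins were lower almost throughout after scaling to the median gene. Of these, 72 were called lower and 1 higher, where 41.9% of all genes were called lower and 41.6% higher (limma adjusted p under 0.05). Their median log2 change was -0.99, against 0.01 for all genes. RPL14B and RPL17B, at -0.96 and -0.99, thus lay at the median of these genes, and RPL22B and RPL35B above all of them. RPL40B at -1.67 (limma adjusted p = 3.13e-07) and RPL8B at -1.48 (limma adjusted p = 1.45e-06) fell furthest. RPL15B at 0.23 was the one that rose (limma adjusted p = 0.00844). That call was lost with centring per chromosome, at 0.12 (limma adjusted p = 0.0933, against 0.00181 to 0.0342 without single libraries). RPL42B had the smallest fall, at -0.26 (limma adjusted p = 0.0193), which turned to 0.33 as deposited and 0.51 after quantile normalization. The size of the fall of the 73 genes depended on the scaling. As deposited their median was -0.41, with 59 lower and 3 higher (17.3% and 72.4% of all genes). After quantile normalization it was -0.18, with 40 lower and 17 higher (41.1% and 40% of all genes). In that setting RPL14B stood below this median, at -0.56 and rank 17 from the lowest of the 81, and RPL17B at -0.14.

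Of the 10 other genes whose proteins surround the tunnel exit, all 10 were called lower, with a median of -0.88. They are part of the 73 other genes of 60S proteins, of which 72 were called lower with a median of -0.99. Of all genes 41.9% were called lower, so the count is that of 60S genes at large. RPL17A, RPL17B and RPL35A were lower with them and RPL35B was not. After quantile normalization 2 of the 10 were lower and 3 higher (41.1% and 40% of all genes).

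The 11 regulators of ribosomal protein genes changed by -0.77 to 0.89 on the log2 scale. RAP1, whose protein binds most ribosomal protein promoters, changed by -0.77 (limma adjusted p = 1.46e-07), and by -0.19 as deposited. The activator genes FHL1 and IFH1, whose proteins act together at these promoters, changed by 0.09 (limma adjusted p = 0.0453) and -0.36 (limma adjusted p = 2.14e-05). CRF1, whose corepressor protein competes with Ifh1 in some strains, rose by 0.89 (limma adjusted p = 2.6e-06), and by 1.44 as deposited. SFP1, a growth-linked activator gene, rose by 0.15 and STB3, a repressor gene, by 0.29. HMO1, which encodes a high-mobility-group protein at many of these promoters, changed by -0.36, the kinase gene SCH9 by -0.37, REB1 by -0.45 and ABF1, on chromosome XI, by -0.66. TBF1, at 0.04, did not pass the test (limma adjusted p = 0.428). Of the 11 regulators 4 were called higher and 6 lower, where 41.6% and 41.9% of all genes were. As deposited 9 were higher and 1 lower (72.4% and 17.3% of all genes), with IFH1, HMO1, SCH9 and REB1 changing sign.

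Profiles over the 6 libraries, centred on each gene's mean log2 level, were compared by Euclidean distance among named genes. The closest to RPL17A was GPM1, a glycolytic gene also on chromosome XI (distance 0.0979), followed by the transporter gene QDR2. The closest to RPL14A was the fatty acid synthase gene FAS2 (distance 0.0718), followed by HRI1. RPL14B lay closest to NEW1 and to RPL17B (distances 0.0367 and 0.0395), and RPL17B to SGT2 and MIS1. RPL22A lay closest to the 60S gene RPL27A (distance 0.0230), followed by YPQ1. The closest to RPL22B were GOR1 and DAK2 (distances 0.112 and 0.114), to RPL35A HFI1 and VTC1, and to RPL35B the glycogen phosphorylase gene GPH1 and RGA2. With libraries of 2 strains the distance follows mainly the size of the change, and 26 named genes lay within 0.5 of RPL17A but 1218 within 0.5 of RPL22A.

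The genes next to the other members went both ways. Beside RPL22B, MOB2 had a log2 change of -0.19 and MIL1 of 0.31. Beside RPL35B, ARF2 stood at -0.47 and RDI1 at -0.48, and beside RPL35A, ARF1 stood at -1.08 and UFD2 at 0.11. ARF1 and ARF2, which encode small GTPases of vesicle traffic, are themselves a pair of copies. Beside RPL22A, FRS1 stood at -0.74 and BMT6 at -0.27. The neighbours of RPL14B, HSE1 and OSH7, stood at 0.60 and 0.19, and those of RPL17B, ATG27 and SWI3, at -0.30 and 0.04.

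The authors' deposited table lists 3 of the 8 genes, and 44% of all 6571. RPL22B, whose log2 change was 1.56 with RPKM as deposited, is not among the 3. The log2 ratios of mean RPKM plus 1 in the authors' deposited table are -1.71 for RPL17A, -1.49 for RPL14A and 1.39 for RPL35B, from the same RPKM without rescaling. The annotated spans of the 8 genes, which contain introns, exceed the lengths used for RPKM by 308 to 493 bases, so those lengths leave the introns out. RNA levels do not separate synthesis from decay, and intron-holding RNA of RPL22B was not measured.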

How the data were processed

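RPKM values of 6571 genes in 6 RNA-seq libraries were deposited by the authors. Per the submitters' processing notes, the build was sacCer3, and the tools named together without roles include Bowtie 1.1.2 and HTSeq 0.6.1; no source used here gives the counting settings. Per the file headers, the authors' deposited table of changed genes holds mean RPKM, a log2 ratio and a DESeq2 adjusted p-value. RPKM times length gave whole reads for 100% of values (tolerance 0.01 reads). Rows without a gene name held 0.513% to 0.926% of reads and were left out.

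The test was limma (3.58.1, R 4.3.3; lmFit, eBayes with trend) on log2(rescaled RPKM + 1), which understates the change of low genes, for the 6307 genes that reached 1 RPKM in 3 or more libraries, two-sided, Benjamini-Hochberg over all genes, threshold 0.05. Size factors were median ratios (0.813 to 0.829 in WT, 1.21 to 1.24 in tSH2Δ). Copy ratios, log2(RPKM + 1) of A minus B, were fitted by limma over 57 pairs of RPL and RPS genes. Both fits were run on simulated reads in which a minority of genes or pairs changed, with a fixed noise level and no shift of a whole chromosome. These data differ from that in each respect, so the simulation checks the code only. Replicate libraries differed by more than sampling noise (chi-square per gene 3.10 to 18.3).

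The members and lists were chosen with earlier results of these data known. Named beside the members were the 3 largest and 3 smallest ratio changes and the 2 largest rises and falls of other 60S genes, all 11 regulators, the 2 nearest profiles and the flanking genes of each member. YLR062C, the pairs with a minor copy and the other pairs of chromosome XI were named after their values were seen. Names and positions came from RefSeq R64 (5897 IDs matched, 674 not). Sequences and the 6 ATAC-seq libraries were not analysed here.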

Additional observations from a re-analysis of the deposited data

How the results depend on the processing

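The scaling, the pseudocount, the low-value filter, the replicate block, voom on whole reads, leaving out chromosome XI and leaving out each library were varied. The copy ratio changes of the 4 pairs kept their direction under every setting run on them. For RPL35 the change was -1.42 with a pseudocount of 0.1 and -1.22 with 5, since a pseudocount weighs most on the low RPL35B. Leaving out single libraries gave -1.14 to -1.07 for RPL14, -1.33 to -1.27 for RPL17, -1.75 to -1.68 for RPL22 and -1.40 to -1.35 for RPL35. Centring per chromosome moved RPL14 to -0.27 and RPL17 to -0.42. Of single genes, RPL35A reversed as deposited (0.012) and RPL22A after quantile normalization (0.12); RPL22B and RPL35B were higher, and RPL14A, RPL14B, RPL17A and RPL17B lower, under every setting that gave them a value.

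Among other 60S genes 3 were higher as deposited, 17 after quantile normalization (40 lower), 2 with total-sum scaling without ribosomal protein genes and 0 with centring per chromosome by limma (0 also at an unadjusted p under 0.05). Of all 6307 genes tested, 4565, 2521, 4259 and 2574 were called higher in these settings, in that order. As deposited 80.7% of all calls were higher, with total-sum scaling 76.4%, against 49.9% after scaling to the median gene. The count of other 60S pairs called ran from 12 to 20 over the libraries left out, the lowest without tSH2Δ replicate 1. The count of 60S pairs unequal in WT ran from 25 to 29 of all 33 over the WT libraries left out. That count includes the chosen pairs, whose WT ratios carry no test, so nothing is read from it for them. With all libraries, 25 of the other 29 pairs were called unequal in WT. How the count of these other pairs moved over the libraries left out was not tested. With replicate number as a block 5054 genes were called rather than 5266, and 15 rather than 19 other 60S pairs. The deviations of same-numbered libraries from their strain means correlated at -0.28 to -0.09. These values show no pairing by number but cannot exclude one, because the deviations within a strain cancel out. The alternative of coding lengths from reference proteins was not run. Depth limits RPL35B most, with 133 reads in the shallowest library.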
